A study of Mus musculus with 3 samples.

Results

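The genes described here are 10 members of the JAK-STAT pathway, the 4 Janus kinase genes Jak1, Jak2, Jak3 and Tyk2, the transcription factor genes Stat3, Stat5a and Stat5b, and the feedback genes Socs1, Socs3 and Cish. They were chosen by name, and all 10 were found among the 52636 gene identifiers in the counts. All 10 also passed the filter on low counts that left 16548 genes for testing. RNA-seq counts from 3 libraries of normal thymus of C57BL/6 mice were used, called thymus 1, 2 and 3 after the labelled replicate numbers. The labels do not say whether each library comes from a separate animal. The study set these controls beside lymphomas that lack Cic, the gene of the transcriptional repressor capicua; the lymphomas are not analysed here. The genotype of every library is given as Cic flox/flox with tamoxifen (TAM), no Cre transgene is named for them, and age is not given in the sources used here. With 1 condition there is no contrast between groups, so the questions are how high each gene stood in control thymus, in what order, and how far the thymi differed.

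Janus kinases are bound to the inner tails of cytokine receptors. When a cytokine joins its receptor chains, the kinases phosphorylate each other and the receptor, and STAT proteins dock there, are phosphorylated in turn, pair up and enter the nucleus to switch on genes. The SOCS family and CISH are among those genes, and their proteins turn the pathway down, so that they act as negative feedback. In the thymus the best known user of this route is interleukin-7, which keeps early and mature thymocytes alive through receptor chains that carry JAK1 and JAK3 and mainly activate STAT5A and STAT5B. SOCS1 limits such signals in double-positive thymocytes, the most numerous cells of the organ.

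STAT5A and STAT5B are near-identical proteins encoded by neighbouring genes, and the deposited count layout keeps only reads with a single best place in the genome. How far the genes can be told apart therefore bears on both of their levels. The coding sequences of Stat5a (2382 bases) and Stat5b (2361 bases), read from the annotated transcripts, had 2128 identical bases among 2346 aligned bases, or 90.7%. They shared 10 identical runs of at least 50 bases that covered 1098 bases, 46.1% of the Stat5a coding sequence. The longest ran over 324 bases. Its first 300 bases, the same in both genes and counted from the start codon as coding bases 571 to 870, are shown first, in lower case since no base differs. The next lines give coding bases 865 to 984 of each gene, where the run ends, with the 2 differing bases in capitals.
Stat5a and Stat5b, identical: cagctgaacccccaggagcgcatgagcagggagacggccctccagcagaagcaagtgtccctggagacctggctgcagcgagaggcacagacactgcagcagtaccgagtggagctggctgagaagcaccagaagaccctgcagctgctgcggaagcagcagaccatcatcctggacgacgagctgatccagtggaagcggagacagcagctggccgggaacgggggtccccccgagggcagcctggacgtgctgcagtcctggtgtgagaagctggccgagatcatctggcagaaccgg
Stat5a: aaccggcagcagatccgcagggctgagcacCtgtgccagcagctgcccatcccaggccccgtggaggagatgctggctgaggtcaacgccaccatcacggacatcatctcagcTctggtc
Stat5b: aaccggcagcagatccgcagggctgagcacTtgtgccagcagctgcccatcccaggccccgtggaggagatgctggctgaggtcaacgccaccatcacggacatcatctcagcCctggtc
A read that lay wholly inside the first stretch had the same letters in both genes. In the genome (GRCm38) the whole run spans exons 7 to 9 of Stat5a, chr11:100874023-100874983, and exons 6 to 8 of Stat5b, chr11:100797741-100798701, so introns divide it. Over all their annotated exons, 8.21% of the 50-base stretches of Stat5a and 11% of those of Stat5b occurred in transcripts of another gene. The other 8 members shared none or few, up to 0.324%, except Jak3 at 6.93%.

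**Figure D1:**
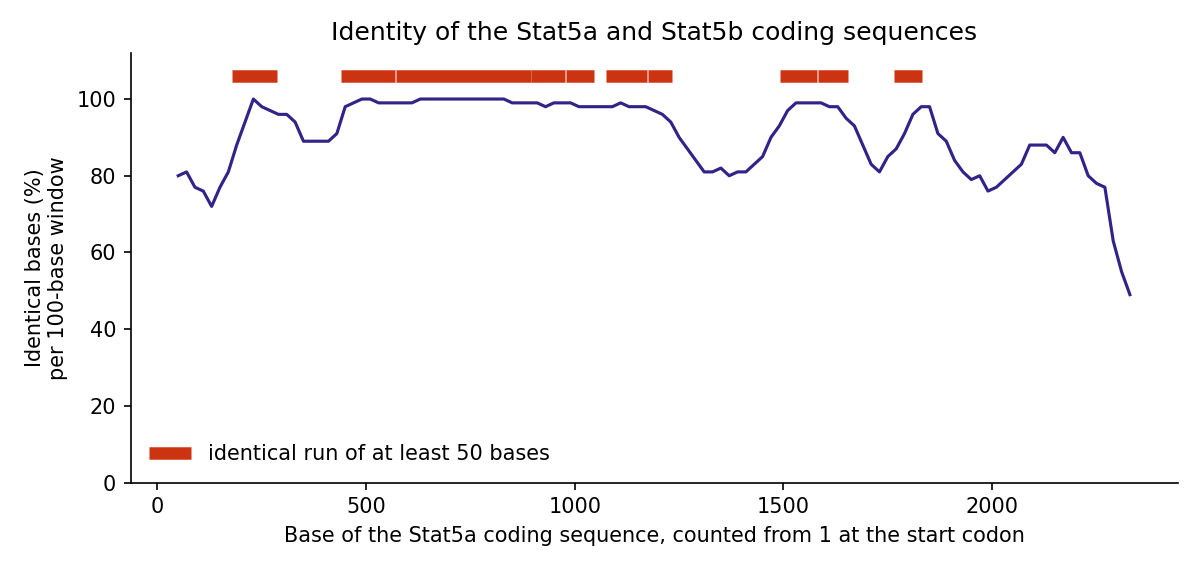
Percent of identical bases between the Stat5a and Stat5b coding sequences in windows of 100 bases (y axis) against the middle of the window in the Stat5a coding sequence (x axis, bases). Red bars above mark the 10 identical runs of at least 50 bases; identity is lowest, 49%, at the end of the coding sequence.

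The libraries held 38265510 to 44932368 reads, of which 25408442 to 30414788 (66.4% to 69.1%) were counted on genes. Markers of thymus were present: the double-positive thymocyte genes Rag1, Cd4 and Cd8a stood at 4075 ± 169, 1059 ± 49.3 and 1829.7 ± 38.6 CPM, and the thymic epithelial gene Foxn1 at 19.0 ± 3.57 CPM (mean ± SD, n = 3), beside a median of 18.8 CPM over the tested genes. CPM are read counts relative to library size (counts per 1e6), scaled between libraries by edgeR's TMM method, and errors below are also SDs over the 3 thymi. In whole tissue, fewer cells of a type and less RNA per cell cannot be told apart.

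JAK1 is the kinase shared by the receptors of interleukin-7, of the interleukin-6 family and of the interferons. Jak1 (chromosome 4, 101152367 to 101265282, minus strand, GRCm38) was read at 427, 417 and 398 CPM in thymus 1, 2 and 3, a mean of 414 ± 14.8. It was the member with the most reads in every thymus, and the highest value was 1.07 times the lowest. JAK2 serves single-chain receptors such as that of erythropoietin, and pairs with JAK1 at the interferon gamma receptor. Jak2 (chromosome 19, 29251828 to 29313080, plus strand) stood at 174, 163 and 164 CPM, a mean of 167 ± 5.92. Thymus 1 was highest for both of these kinases, by little.

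JAK3 binds the common gamma chain of the receptors for interleukin-2, interleukin-7, interleukin-15 and their relatives. Jak3 (chromosome 8, 71676296 to 71690575, plus strand) stood at 42.2, 46.7 and 39.9 CPM, a mean of 42.9 ± 3.49. TYK2 works at the receptors of type I interferons and of interleukin-12 and interleukin-23. Tyk2 (chromosome 9, 21104068 to 21131243, minus strand) stood at 63.2, 64.8 and 55.3 CPM, a mean of 61.1 ± 5.08. Thymus 2 gave the highest and thymus 3 the lowest value of both, 1.17 times apart in each case. The 3' part of Jak3 shares 404 exonic bases with Insl3, a gene on the same strand, on which 24, 28 and 13 reads were counted. Reads in the shared part belong to both annotations and may be counted on neither gene. The level of Jak3 per kilobase may therefore be understated, which bears on its ratios and its place in the order.

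Reads can be compared between genes only per unit of length. Per kilobase of all annotated exons, Jak1 stood at 57.2 ± 2.05 CPM, Jak2 at 33.2 ± 1.18, Tyk2 at 8.90 ± 0.739 and Jak3 at 8.02 ± 0.652. Of the summed level of the 4 kinases (107 ± 3.88 CPM per kilobase), Jak1 held 53.3 ± 0.0639%, Jak2 30.9 ± 0.850%, Tyk2 8.29 ± 0.452% and Jak3 7.48 ± 0.518%. The share of Jak1 was almost the same in the 3 thymi, at 53.4%, 53.3% and 53.4%. The kinases of the gamma chain receptors were thus unequal in transcript level, with a Jak1 to Jak3 ratio of 7.49, 6.60 and 7.38 within the thymi, a mean of 7.16 ± 0.486. Jak1 to Jak2 was 1.73 ± 0.0460. With the length of the longest coding transcript in place of all exons these ratios were 7.92 and 2.54, so that Jak1 led by either length.

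STAT5A and STAT5B carry the signals of interleukin-7, interleukin-2 and growth hormone. Stat5b (chromosome 11, 100780731 to 100850724, minus strand) stood at 302, 325 and 293 CPM, a mean of 306 ± 16.3. Stat5a (chromosome 11, 100859351 to 100885169, plus strand) stood at 109, 115 and 105 CPM, a mean of 109.5 ± 4.63. Both were highest in thymus 2 and lowest in thymus 3. STAT3 carries the signals of the interleukin-6 family and of interleukin-10. Stat3 (chromosome 11, 100885098 to 100939540, minus strand) stood at 161, 172 and 145 CPM, a mean of 159 ± 13.2, again highest in thymus 2 and lowest in thymus 3.

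The 3 genes lie side by side on chromosome 11. Stat5b and Stat5a start back to back with 8626 bases between them, and the 3' ends of Stat5a and Stat3 overlap tail to tail by 72 bases. Per kilobase of all exons Stat5b stood at 55.3 ± 2.94 CPM, Stat3 at 16.7 ± 1.39 and Stat5a at 15.4 ± 0.649. Within the thymi Stat5b was 3.58, 3.65 and 3.58 times Stat5a, a mean of 3.60 ± 0.0399, and so held 78.3 ± 0.188% of the STAT5 transcript level. This ratio had a narrow spread, but its size moved with the length used. Against the longest coding transcripts (3888 bases for Stat5a and 5213 for Stat5b) it was 2.09, with Stat5b at 67.6 ± 0.242%. When the 50-base stretches found in another gene were left out of the lengths, a correction added after the data were seen, it was 3.71. Stat5b was above Stat5a in each thymus under all 3 lengths.

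SOCS1 blocks the kinase domains of JAK1, JAK2 and TYK2 directly. Socs1 (chromosome 16, 10782240 to 10785536, minus strand) stood at 95.8, 113 and 103 CPM, a mean of 104 ± 8.47. It was the only member lowest in thymus 1. SOCS3 acts at the gp130 receptor chain and so mostly limits STAT3. Socs3 (chromosome 11, 117966079 to 117970047, minus strand) stood at 41.2, 40.9 and 39.9 CPM, a mean of 40.6 ± 0.668, the smallest relative spread of the 10. CISH, a target of STAT5, limits signals at interleukin-2 and other receptors. Cish (chromosome 9, 107296026 to 107302784, plus strand) stood at 19.7, 23.1 and 19.0 CPM, a mean of 20.6 ± 2.17, and was the lowest member in every thymus.

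Per kilobase of all exons Socs1 stood at 35.7 ± 2.91 CPM, Socs3 at 14.1 ± 0.231 and Cish at 3.21 ± 0.338. Socs1 held 67.4 ± 1.60% of their sum, Socs3 26.6 ± 1.66% and Cish 6.05 ± 0.351%. The Socs1 to Socs3 ratio was 2.31, 2.74 and 2.57 in thymus 1, 2 and 3, a mean of 2.54 ± 0.215. Socs1 was above Socs3, and Socs3 above Cish, in every thymus and by either length. The size of the gap to Cish depended on the annotation: the exons of Cish add up to 6419 bases but its longest coding transcript to 2850. The Socs1 to Cish ratio was 11.2 ± 0.709 by the former length and 4.96 by the latter. Relative to the activators, Socs1 stood at 0.625 ± 0.0599 times Jak1 and 0.646 ± 0.0357 times Stat5b per kilobase of all exons. By the longest coding transcript these were 0.424 ± 0.0406 and 0.608 ± 0.0336.

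Cish is also the member whose count depended most on strand. Its exons overlap those of Gm17040 (261 bases) and Gm17041 (479 bases) on the opposite strand. Counted without strand, Cish kept 430, 467 and 330 of its 600, 677 and 469 reads, 70.3% in all, while the other 9 members kept between 99.7% and 101.4%. In the column for the opposite strand, Gm17041 held 144, 176 and 115 reads and Gm17040 26, 34 and 26; those are reads that lie on the strand of Cish. Over all 10 members, 421 of 121008 stranded reads lay on the opposite strand, 0.348% (95% exact binomial interval 0.316% to 0.383%, counting error only), against 3.37% to 3.44% over all genes in the 3 libraries. Socs3 had the highest share, 1.38%, and Jak2 the lowest, 0.0709%.

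**Figure D2:**
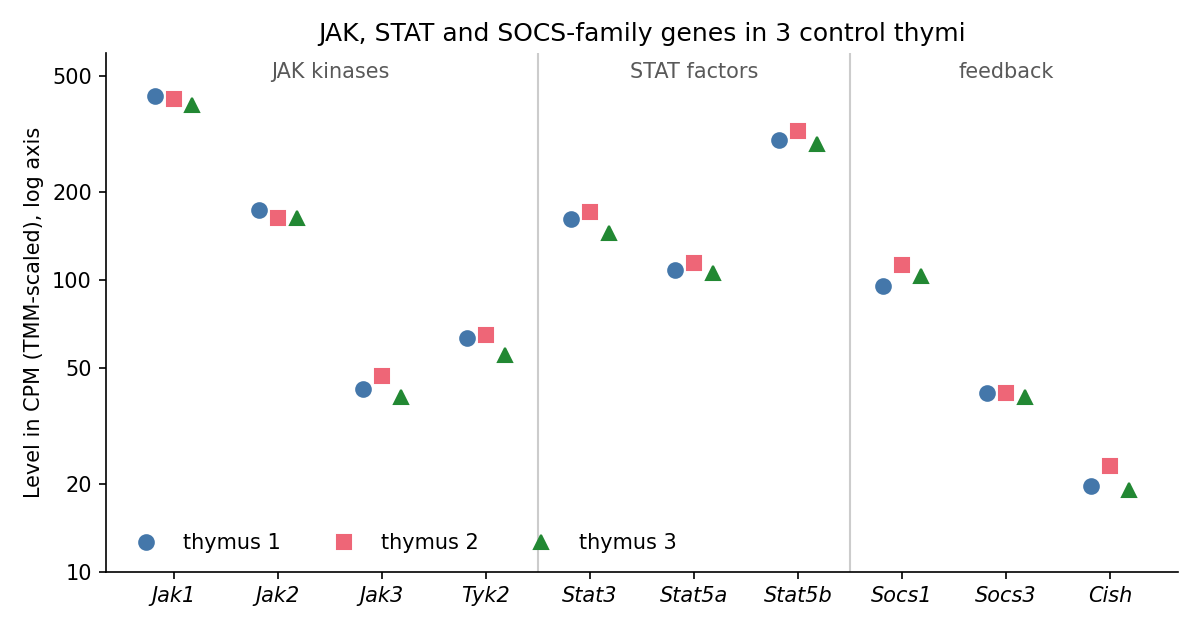
Level of each member in CPM (log axis) in thymus 1, 2 and 3, 1 point a library, grouped as JAK kinases, STAT factors and feedback genes. Jak1 is the highest and Cish the lowest in all 3 thymi, and the points of a gene lie within 1.03 (Socs3) to 1.21 (Cish) times of each other.

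Ordered by CPM per kilobase of all exons, the members ran Jak1, Stat5b, Socs1, Jak2, Stat3, Stat5a, Socs3, Tyk2, Jak3 and Cish. Their median was 16 CPM per kilobase, against 4.99 over the 16548 tested genes. Jak1 lay at percentile 95 of those genes, Stat5b at 94.7, Socs1 at 91 and Jak2 at 90.1, while Cish lay at 41.5, the only member below the middle of the tested genes. Of the 9 pairs of neighbours in this order, 4 had ranges that overlapped over the thymi and are not separated. These were Jak1 with Stat5b (ratio within thymi 1.04 ± 0.0505), Socs1 with Jak2 (1.08 ± 0.121), Stat3 with Stat5a (1.09 ± 0.0496) and Tyk2 with Jak3 (1.11 ± 0.0501). The other 5 were apart, by 1.09 ± 0.0378 (Stat5a over Socs3) to 2.5 ± 0.0695 (Jak3 over Cish). An exact sign-flip test of a ratio (two-sided) over 3 thymi cannot go below p = 0.25, so the order stands as a description.

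Length set part of that order. By the longest coding transcript Jak1 stood 1.44 ± 0.0699 times above Stat5b and the pair no longer overlapped. Stat3 and Stat5a changed places, with Stat3 at 0.936 ± 0.0426 times Stat5a, and still overlapped. The rest of the order was the same. Cish rose from 3.21 to 7.23 CPM per kilobase by that length. Percentiles were computed by the length of all exons only, so the place of Cish below the middle of the tested genes rests on that length.

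**Figure D3:**
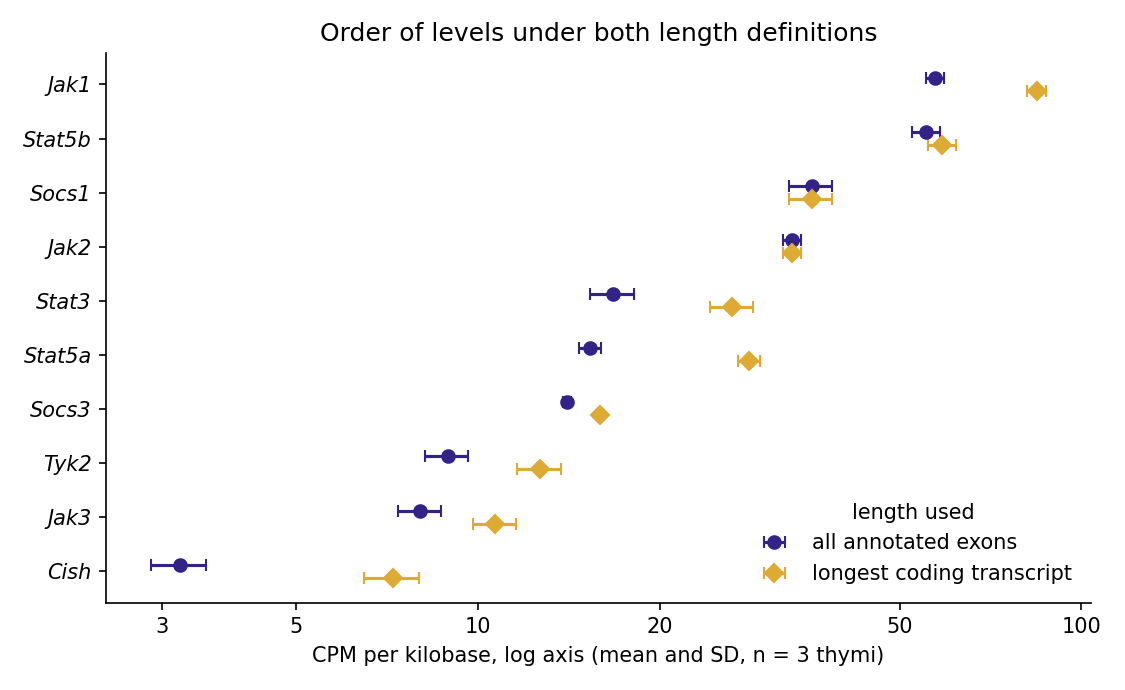
Mean level of each member in CPM per kilobase (log axis), with SD over 3 thymi, by the length of all annotated exons (circles) and of the longest coding transcript (diamonds). Jak1 and Stat5b lead by both lengths and Cish is last by both, at 3.21 and 7.23 CPM per kilobase.

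The next question was whether any member differed between the thymi. Of the 10, 9 varied by more than counting noise (edgeR goodness of fit at a dispersion of 0, Benjamini-Hochberg adjusted p under 0.05 over 16548 genes). That compares with 43.4% of all genes tested, and with 63.7% of the 7714 genes within the members' range of CPM. The adjusted p was lowest for Stat3 (2.22e-12), Stat5b (4.57e-10) and Socs1 (9.57e-09), and Socs3 was the member that did not pass (0.822). The members' median coefficient of variation was 6.72%, close to the 6.03% of genes within their CPM range. It ran from 1.64% for Socs3 to 10.5% for Cish. The count of 9 did not hold with fewer libraries: it fell to 8, 5 and 6 when thymus 1, 2 or 3 was left out, where 39.7%, 26.2% and 22.3% of all genes passed. Jak2 was lost without thymus 1. Jak3, Stat5a, Stat5b and Cish were lost without thymus 2, and Jak1, Tyk2 and Stat5a without thymus 3.

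Measured against other genes of like abundance, 0 of the 10 members varied more than the trend between thymi (edgeR quasi-likelihood, one-sided, Benjamini-Hochberg 0.05), where 0.0604% of all genes did. At an unadjusted p under 0.05 the count was also 0, as it was by the DESeq2 check for dispersion outliers and by goodness of fit with a negative binomial model. Adjusted p-values ran from 0.984 for Stat3, Tyk2 and Socs1 to 0.9998 for Socs3. Dispersion over the trend was 1.71 for Stat3 and 0.0533 for Socs3, with 5 members above the trend and 5 below. The labels name no separate animals, so these p-values measure only the spread between the 3 samples, which may be technical. The quasi-likelihood test called only 10 of 16548 genes. It did not call the fat cell gene Lep (adjusted p = 0.271), at 5.42, 22.1 and 10.2 CPM in thymus 1, 2 and 3. The members lay within 1.03 (Socs3) to 1.21 (Cish) times between thymi, so 0 calls does not show that their levels were equal.

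The direction of the differences was alike for most members. Thymus 2 was highest for 7 of them and thymus 1 for 3, and thymus 3 was lowest for 8. Over all tested genes thymus 2 was highest for 38.0%, thymus 1 highest for 24.1% and thymus 3 lowest for 39.7%. Their summed level was 1434, 1479 and 1363 CPM in thymus 1, 2 and 3. The gaps were small: Tyk2 lay 0.14 and Stat3 0.13 below its mean on the log2 scale in thymus 3, and Cish lay 0.17 above in thymus 2.

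The thymi also differed in how levels went with transcript GC content. Across 16522 genes, which are not independent replicates, the deviation of a library from the gene mean had a Spearman correlation with transcript GC content of −0.162, 0.405 and −0.281 in thymus 1, 2 and 3. Of the members 8 have a GC content above the median of tested genes (49.7%), led by Jak3 at 61.1%, and Jak1 (47.6%) and Jak2 (44.3%) lie below it. With the GC trend removed in each library, an alternative added after the data were seen, thymus 3 was again lowest for 8 of 10. Of these, 7 were the same genes, with Jak2 in place of Socs3. In Stat5a, 1 of the 8, the highest value was only 1.01 times that in thymus 3. The share of all genes lowest in thymus 3 was not counted after this step, so the 8 of 10 stands without a background. Thymus 2 was highest for 6, but in Stat5a and Socs1 it was level with another thymus to 3 digits. The spread then shrank to a median of 4.0%, and 6 of 10 passed the test of counting noise against 37.7% of all genes. Jak3 (adjusted p = 0.411), Stat5a (0.960) and Cish (0.177) no longer passed. Stat5a stood at 109.8, 109.8 and 109 CPM after that step, against 109, 115 and 105 before it.

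Marker sums of other cells also differed between the thymi. The 10 macrophage and dendritic cell markers summed to 1209, 998 and 907 CPM and the 5 B cell markers to 94.4, 86.0 and 71.6, both lowest in thymus 3, where 8 of the members were lowest too. Each of these 10 and 5 genes was lowest there. The 5 endothelial markers summed to 113, 126 and 103 CPM, highest in thymus 2 and lowest in thymus 3, the order of most members. That sum is mostly 1 gene, Pecam1 (102, 113 and 92.2 CPM). Of the 5 genes 3 were lowest in thymus 3, while Emcn was highest there and lowest in thymus 2. The 6 neutrophil markers summed highest in thymus 3, at 19.6, 16.5 and 39.2 CPM, mostly from S100a8 and S100a9. Of these 6, 4 were highest in thymus 3, while Ly6g and Mpo were lowest there. The 6 erythroid markers were highest in thymus 1, with sums of 1025, 47.1 and 224 CPM. The 8 double-positive thymocyte markers summed to 11026, 10573 and 11257 CPM, with Rag1 the largest part. Gene by gene they were split: 4 (Cd4, Cd8a, Cd8b1 and Ptcra) were highest in thymus 2, 3 in thymus 3 and 1 in thymus 1. In thymus 1, 2 and 3, 3, 4 and 1 of them were lowest. The 7 epithelial markers summed to 2019, 2043 and 2184 CPM. That epithelial sum is mostly Prss16 and Ccl25, and 4 of the 7 (Krt5, Krt8, Epcam and Foxn1) were lowest in thymus 3. The T cell receptor, natural killer and innate T cell, and fibroblast sums were highest in thymus 3 and lowest in thymus 2. Of these, the natural killer and innate T cell sum is mostly Gzma and Trdc, and the fibroblast sum mostly Dcn. Gene by gene, 4 of those 6 natural killer and innate T cell markers and 3 of the 5 fibroblast markers were lowest in thymus 3. The adipocyte sum was highest in thymus 2 and lowest in thymus 1. No defining marker was at 0 in all libraries. The part of these cells in the members' differences was not tested.

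**Figure D4:**
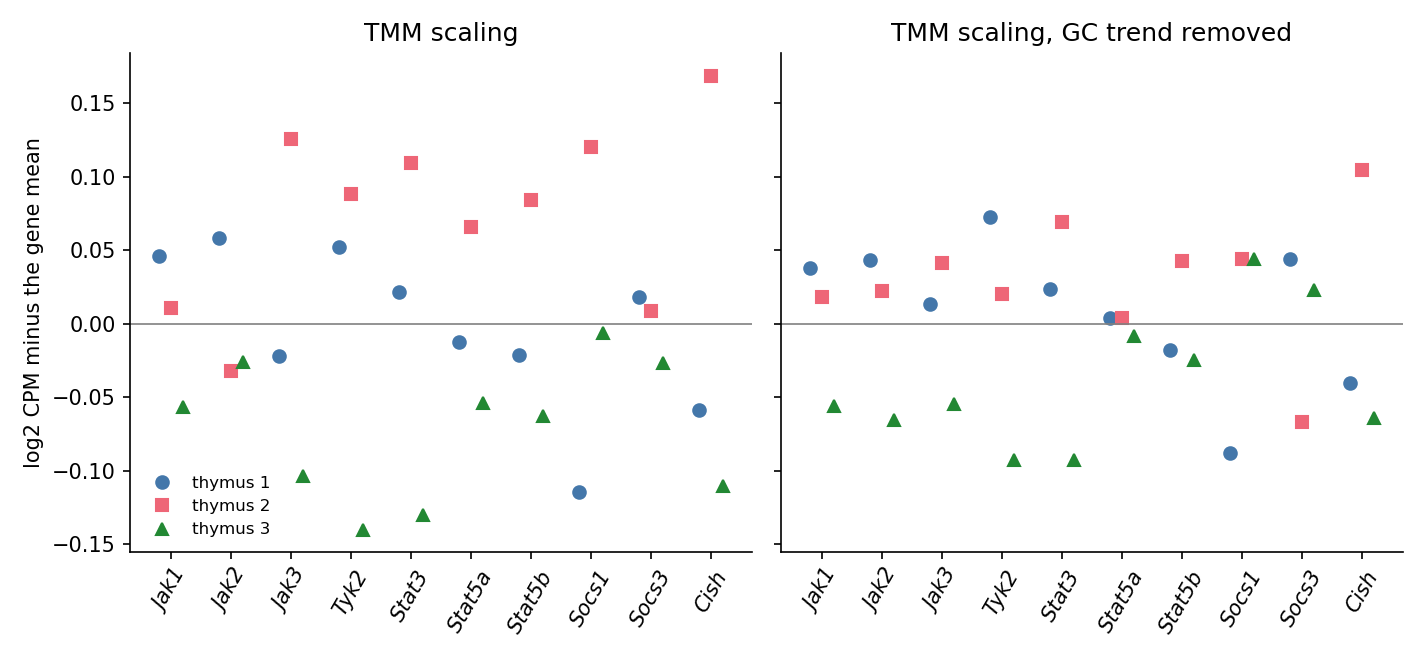
Deviation of each member from its own mean in log2 CPM (y axis) in thymus 1, 2 and 3, with TMM scaling (left) and with the GC trend also removed (right). Thymus 3 is lowest for 8 of 10 members in each panel, 7 of them in both, and the median coefficient of variation falls from 6.72% to 4.0%. Of all tested genes 39.7% are lowest in thymus 3 with TMM scaling. That share was not counted with the GC trend removed.

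The promoters were searched for the letters that STAT dimers are known to bind, TTCNNNGAA, on both strands. RefSeq (GRCm38.p6) gave 12 windows of 250 bases before a transcript start for the 10 members, since Stat5a and Stat5b have more than 1. The element occurred in 1 window, that of Socs3, against 7.02% of 32851 windows of all genes. In lower case with the fixed letters in capitals, it lies 146 bases upstream of the RefSeq start at chr11:117969512-117969520 on GRCm38, inside the longer GENCODE span of the gene.
Socs3: TTCttaGAA
The tighter form TTCCNGGAA, which STAT5 prefers, is contained in that motif and was in 0 member windows, against 0.913% of all windows. A match is a description of the letters, and no match says only that they are not in these 250 bases. The windows of Cish and Stat5a lie inside the GENCODE spans of these genes, so the bases before those spans were not searched.

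The rest of the pathway was read from lists of 88 other genes, of which 84 had more than 3 counts in every library and 77 at least 1 CPM. Their median was 6.41 CPM per kilobase, below the 16 of the members. Beyond counting noise varied 56 of the 84 tested (66.7%), where 43.4% of all genes and 63.7% of those within the CPM range of the members did. None (0) varied more than the trend, where 0.0604% of all genes did, with 3 at an unadjusted p under 0.05. The counts per list that follow stand beside those same shares and single out no list. Levels in the next paragraphs are CPM per kilobase of all exons.

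Upstream of JAK1 and JAK3, all 8 gamma chain and related receptor genes reached 1 CPM in every thymus. All 8 varied beyond counting noise (43.4% of all genes, 63.7% of those within the members' CPM range). Of the 8 genes, Il9r (15.1 CPM) lay below that range. Il21r (73.0 ± 4.48), Il2rg, the common gamma chain itself (61.7 ± 2.89), and Il4ra (33.6 ± 1.26) led them. The range of Il2rg over the thymi overlapped that of Jak1 and lay above that of Jak3. Of 17 gp130 and other type I receptor genes 15 reached 1 CPM and 12 of 16 tested varied beyond counting noise. The gp130 gene Il6st (23.0 ± 1.53), Il27ra (17.9 ± 0.924) and Lifr (9.65 ± 0.867) led. Of 8 type II receptor genes, which use JAK1 with JAK2 or TYK2, 7 reached 1 CPM and 4 of 7 varied beyond counting noise. Ifngr1 (119 ± 1.74), Ifnar1 (24.1 ± 1.39) and Ifngr2 (21 ± 0.640) led, and Il22ra1 had 1, 2 and 1 counts.

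The ligand genes were low. Of 12, 5 reached 1 CPM in every thymus, and 3 of 11 tested varied beyond counting noise. Il7 (5.63 ± 0.462), Il15 (3.93 ± 0.156) and Osm, which encodes oncostatin M (2.20 ± 0.561), led them, and Il2 had 1 count in each thymus. At 3 counts a gene lies at 0.0986 to 0.118 CPM of the reads on genes, so Il22ra1 and Il2 were not detectable above that depth.

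Among the other STAT genes, all 4 above 1 CPM, 3 varied beyond counting noise. Stat6, the factor of interleukin-4 (42.2 ± 1.71) lay below Stat5b and above Socs1 in every thymus. Stat2 (16.7 ± 0.594), which serves the type I interferons, stood near Stat3 and Stat5a. Of the 5 other SOCS genes, all above 1 CPM, 2 varied beyond counting noise. Socs4 (27.4 ± 3.54), Socs7 (12.2 ± 0.458) and Socs6 (3.20 ± 0.313) led, and Socs1 at 35.7 ± 2.91 stood above all 5. The 13 other negative regulators all reached 1 CPM and 12 varied beyond counting noise (43.4% of all genes, 63.7% within the members' CPM range). Of these, Ptprc (2108 CPM) and Cbl (1397 CPM) lay above that range and Pias3 (16.7 CPM) below it. The phosphatase gene Ptprc, which encodes CD45 (115 ± 11.6), the ubiquitin ligase gene Cbl (113 ± 4.50) and the phosphatase gene Ptpn6 (81.3 ± 5.41) led, each above every SOCS gene measured.

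Of 14 genes linked to STAT5 as targets in textbooks, all reached 1 CPM and 11 varied beyond counting noise. Mcl1, a survival factor (162 ± 12.3), Ccnd3, which encodes cyclin D3 (81.9 ± 5.63), and the repressor gene Gfi1 (43.9 ± 3.41) led, and their median was 21.9. Of 9 genes linked to STAT3, 8 reached 1 CPM and 3 of 8 tested varied beyond counting noise. Junb (22.1 ± 2.06), Icam1 (15.5 ± 1.73) and Vegfa (4.89 ± 0.338) led, with a median of 3.38. Most of these genes also answer to other signals, and no list was tested against another.

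**Figure D5:**
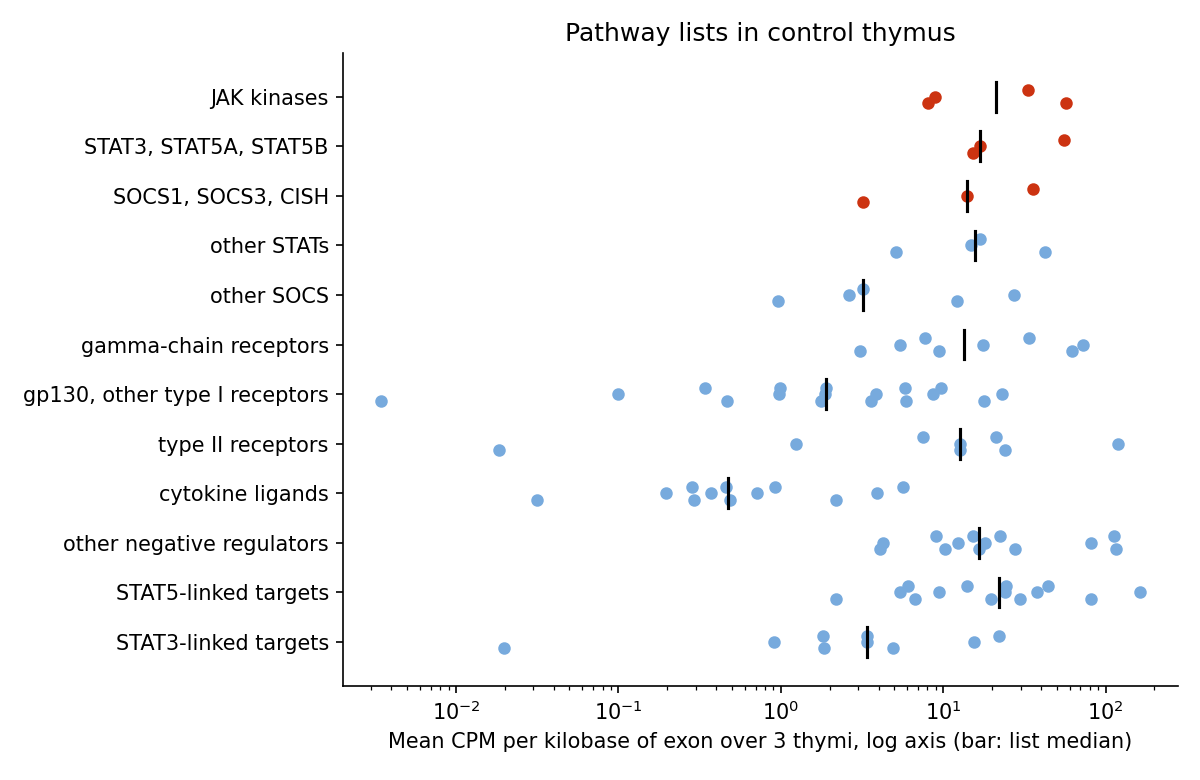
Mean level over 3 thymi in CPM per kilobase of exon (log axis), 1 point a gene, for the 10 members (red) and the other pathway lists (blue), with the list median as a bar. The ligand genes lie lowest, with Il7 at the top of that list, and the highest points are Mcl1 and Ifngr1.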

How the data were processed

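Polyadenylated RNA of 3 control thymus samples was sequenced with a stranded kit, per the labels' protocols. The authors deposited raw gene counts in an unstranded and 2 stranded columns, and the reverse-strand column was used. The submitters' processing notes name STAR 2.5.3a, DESeq2 (no version) and GRCm38, while the annotation release and read length are not stated there. Lines that name no gene (30.9% to 33.6% of reads) were left out. Of 52636 identifiers 52489 matched GENCODE M21, which gave symbols, 1-based coordinates, lengths and transcript sequences.

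edgeR 4.0.16, limma 3.58.1 and DESeq2 1.42.0 in R 4.3.3 were used. The edgeR filter (minimum count 10, total 15) left 16548 genes, whose sums are the library sizes, and TMM factors were 1.00, 1.03 and 0.971. Variability above the trend was tested by the quasi-likelihood dispersion over its prior (5.24 prior degrees of freedom), and variation beyond counting noise by goodness of fit. Both tests were run on counts simulated with known changes. Those changes were all larger than the members' differences, and how many were recovered is not given here. Alternatives were other scalings and filters, the unstranded column, each library left out, transcript length, a prior that is not robust, and, added after the data were seen, removal of the GC trend (lowess, span 0.3), at least 1 CPM in every library, and lengths without shared 50-base stretches.

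The members and lists were chosen with earlier results of these data known. The text names every member, the 3 highest genes per kilobase of each pathway list, any gene with at most 3 counts in every library, and any gene called above the trend. A few genes under this rule are not reported here. Marker genes, and Insl3, Gm17040 and Gm17041, which overlap members, are named outside that rule and were chosen after their values were seen.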

Additional observations from a re-analysis of the deposited data

How the results depend on the processing

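No paired analysis was possible because all 3 libraries belong to 1 group. The count of 0 of 10 members above the trend (edgeR quasi-likelihood) was the same under every alternative run, with adjusted p of at least 0.782. Socs1 reached an unadjusted p of 0.047 in that test without replicate 3. In the main run the test did not call the larger difference of Lep. The unchanged count therefore says little about differences as small as those of the members. Members beyond counting noise numbered 5 to 8 with 1 library left out, 8 with the unstranded column (Cish adjusted p = 0.0784) and 6 with the GC trend removed, against 9. Of 100 member levels in CPM under alternatives, 96 stayed within 1 SD. These include means with 1 library left out, which reuse libraries of the main mean and are no independent check.

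Length moved the ratios per kilobase. With the longest coding transcript, Stat5b over Stat5a was 2.09, Socs1 over Socs3 2.25, Socs1 over Cish 4.96, Jak1 over Jak2 2.54 and Jak1 over Jak3 7.92. Without shared stretches Stat5b over Stat5a was 3.71, and without strand Socs1 over Cish was 15.9. The share of opposite-strand reads was 0.310% in library 2 alone and 0.394% in library 3 alone. All these ratios kept their direction. Depth limits detection to about 3 counts, or 0.118 CPM of the reads on genes in the shallowest library.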
